A study of Rattus norvegicus with 36 samples.

Results

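The genes described here are 7 markers of the hepatocytes next to the central vein of the liver lobule, grouped with Glul: Glul, Slc1a2, Rhbg, Axin2, Tbx3, Lgr5 and Rgn. They were chosen by name, and every probe set that the array's annotation assigned to one of them alone was taken. That gave 12 probe sets for 6 of the 7 genes, out of 31042 probe sets for 14217 named genes. Glul had 3 probe sets, Slc1a2 had 2, Tbx3 had 4, and Axin2, Lgr5 and Rgn had 1 each. Rhbg was assigned to none, so it was not analysed here.

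The samples were livers of male Sprague Dawley rats, 7 weeks old when dosing began, which received the halogenated flame retardant hexachlorocyclopentadienyl-dibromocyclooctane (HCDBCO) in corn oil by gavage on 5 days. There were 36 samples in 6 groups of 6. One group had corn oil alone (vehicle), and the others 0.05 mg/kg, 0.54 mg/kg, 5.41 mg/kg, 54.1 mg/kg or 541 mg/kg. RNA came from the left lobe 1 day after the last dose, so every value is an average over all zones and cell types of that piece. The design set every dose against vehicle to ask which transcripts differ.

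The liver lobule is zoned from the portal vein to the central vein. Endothelial cells of the central vein secrete Wnt proteins, and R-spondins strengthen their signal through receptors such as Lgr5. In hepatocytes beside the vein this stabilises beta-catenin, which, together with TCF factors, turns on a set of genes that the rest of the lobule lacks or holds at a low level. Glul encodes glutamine synthetase, which joins ammonia to glutamate in the last hepatocytes that blood passes before it leaves the lobule. Slc1a2 is a glutamate transporter and Rhbg an ammonia channel of the same cells. Axin2 is a direct beta-catenin target that feeds back to inhibit the pathway, and Tbx3 is a transcription factor enriched in pericentral hepatocytes. Rgn encodes regucalcin, a gluconolactonase of the vitamin C pathway.

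The sequences upstream of these genes show where the letters of the TCF binding motif stand. The motif was searched as CTTTGAA or CTTTGAT on both strands (TTCAAAG or ATCAAAG when read on the printed strand), every match being counted, in windows of 250 bases before to 50 bases after each start site in RefSeq's annotation of assembly GRCr8. Windows were held for 5 of the 7 genes, 7 windows in all, and 3 of them contained a match, against 8.73% of all 33469 windows. Tbx3 and Lgr5 were not among the genes with a window. The 3 windows with a match and the other Glul window are printed 5′ to 3′ on the strand of the gene, with the matches in capitals; they lie at chr13:68519250-68519549 (plus strand) and chr13:68575816-68576115 (plus strand) for Glul, chr10:94398535-94398834 (plus strand) for Axin2 and chr3:109507697-109507996 (plus strand) for Slc1a2.
Glul, start site 1: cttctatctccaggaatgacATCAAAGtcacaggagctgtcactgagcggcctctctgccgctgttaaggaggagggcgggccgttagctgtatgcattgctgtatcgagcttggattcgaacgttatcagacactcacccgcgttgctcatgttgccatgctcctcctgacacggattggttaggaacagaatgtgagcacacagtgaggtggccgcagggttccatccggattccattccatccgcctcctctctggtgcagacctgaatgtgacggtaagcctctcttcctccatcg
Glul, start site 2: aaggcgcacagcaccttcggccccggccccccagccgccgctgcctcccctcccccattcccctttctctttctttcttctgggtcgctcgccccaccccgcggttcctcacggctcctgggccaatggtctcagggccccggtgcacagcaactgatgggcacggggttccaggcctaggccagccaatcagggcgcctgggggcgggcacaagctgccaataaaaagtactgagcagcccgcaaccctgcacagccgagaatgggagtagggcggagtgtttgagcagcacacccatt
Axin2: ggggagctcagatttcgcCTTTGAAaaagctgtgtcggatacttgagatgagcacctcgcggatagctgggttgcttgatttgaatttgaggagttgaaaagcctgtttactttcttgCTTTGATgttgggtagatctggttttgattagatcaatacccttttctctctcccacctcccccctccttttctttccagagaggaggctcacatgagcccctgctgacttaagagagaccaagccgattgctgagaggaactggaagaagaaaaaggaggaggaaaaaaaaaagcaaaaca
Slc1a2, start site 2: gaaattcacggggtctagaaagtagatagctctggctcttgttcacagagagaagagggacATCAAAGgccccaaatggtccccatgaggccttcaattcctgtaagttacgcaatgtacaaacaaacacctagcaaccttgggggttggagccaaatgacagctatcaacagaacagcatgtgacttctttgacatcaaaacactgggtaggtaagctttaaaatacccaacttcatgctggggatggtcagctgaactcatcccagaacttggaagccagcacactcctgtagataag
Axin2 held 2 matches, at 232 and 132 bases before the start site, which 0.571% of all windows did. The match of Glul lay 230 bases before its first start site, and that of Slc1a2 189 bases before the second. Start sites are numbered by position on the chromosome, and which of them is used in liver was not tested. The windows of Rhbg and Rgn, the second Glul window and the first Slc1a2 window held none. A match describes letters in this window and says nothing about binding.

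Arrays were alike in distribution, but that of 54.1 mg/kg replicate 5 stood apart. Its lower quartile of 3.79 and upper quartile of 6.94 (log2) were the highest and the lowest of the 36. Vehicle replicate 3 lay at the other end, with the lowest lower quartile (3.62), the lowest median and the highest upper quartile (7.13). The array medians lay between 5.06 and 5.16. No array duplicated another. The labels give no animal numbers and no batch, so the p-values measure only the spread between these samples.

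Glul averaged lowest at the 2 highest doses, in all 3 of its probe sets, by differences that did not pass the false discovery rate (FDR) of 5%. In the brightest, 1367632_at, the log2 values in livers given 541 mg/kg ran from 10.71 to 11.17 with a median of 10.85, against 10.94 to 11.39 with a median of 11.22 in vehicle livers. All 6 samples at 541 mg/kg lay below the vehicle mean and 4 lay below the lowest vehicle sample, but the groups overlapped. The difference was −0.31 ± 0.10 (log2, limma's standard error; 95% interval −0.52 to −0.11), or 0.804 times the vehicle level. It had a p of 0.233 in limma after adjustment over every probe set tested. In these bulk samples, fewer cells of a type and less RNA per cell cannot be told apart. Livers given 54.1 mg/kg ran from 10.79 to 11.08 with a median of 10.97, again all below the vehicle mean, and the difference was −0.24 ± 0.10 (adjusted p = 0.441).

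The group means of this Glul probe set, in the order of dose, were 11.20 ± 0.17 in vehicle, 11.14 ± 0.16 at 0.05, 11.19 ± 0.18 at 0.54, 11.10 ± 0.26 at 5.41, 10.96 ± 0.11 at 54.1 and 10.89 ± 0.17 at 541 mg/kg (log2, SD, n = 6 each). Each mean differed from that of the next dose by less than the SD of either group, except that 54.1 mg/kg lay 0.14 below 5.41 mg/kg, more than its own SD of 0.11 and less than the 0.26 at 5.41 mg/kg. The doses of 0.05, 0.54 and 5.41 mg/kg differed from vehicle by −0.06, −0.01 and −0.11, with adjusted p of 1.00, 0.999 and 0.985. A linear trend over the 6 groups had a slope of −0.064 ± 0.017 per dose step, with an unadjusted p of 0.000683 and an adjusted p of 0.0712. The 2 upper doses together lay 0.22 ± 0.07 below the 3 lower doses together (difference −0.22, adjusted p = 0.191), a comparison that does not use the vehicle arrays.

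**Figure D1:**
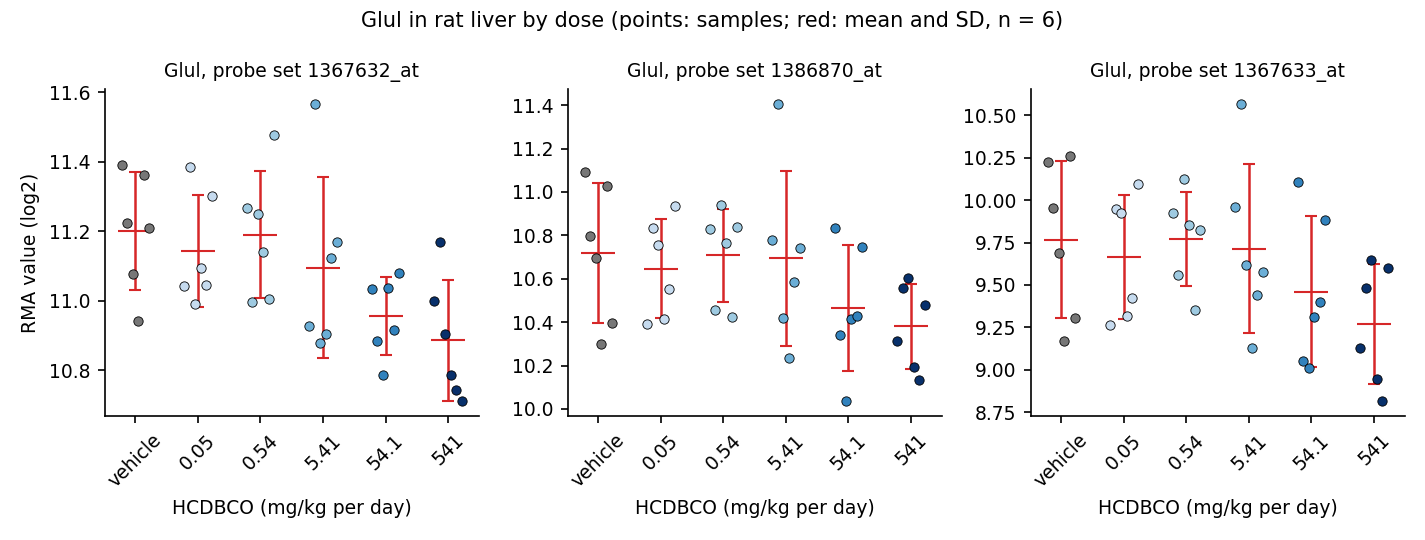
Deposited log2 RMA value of each of the 3 Glul probe sets (panels, each with its own axis) against dose, vehicle at the left; points are samples and red marks the mean and SD of 6. All 6 samples at 541 mg/kg sit below the vehicle mean in each panel, the groups overlap, and 5.41 mg/kg replicate 2 is the highest sample in all 3.

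The other Glul probe sets pointed the same way with more scatter. Probe set 1386870_at ran from 10.14 to 10.60 with a median of 10.40 in livers given 541 mg/kg, against 10.30 to 11.09 with a median of 10.75 in vehicle livers, a difference of −0.34 ± 0.15 (adjusted p = 0.493). Probe set 1367633_at ran from 8.81 to 9.65 with a median of 9.31 at 541 mg/kg, against 9.17 to 10.26 with a median of 9.82 in vehicle, a difference of −0.50 ± 0.22 (adjusted p = 0.463). In both, 6 of 6 samples at 541 mg/kg lay below the vehicle mean and the groups overlapped. At 54.1 mg/kg their differences were −0.25 ± 0.15 and −0.31 ± 0.22, with 4 of 6 samples below the vehicle mean in each.

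The 3 Glul probe sets shared most of their variation between samples, but not all of it. Over the 36 samples, 1386870_at and 1367633_at correlated with r = 0.964, and the brightest probe set correlated with them at r = 0.814 and 0.720. These read the same RNA samples, so the values describe the probe sets and were not tested. The dimmer pair also followed the beta-actin 3′ signal minus its 5′ signal on each array, a measure of how intact the labelled RNA was. Here r was −0.395 for 1386870_at (Spearman's rho −0.415, Benjamini-Hochberg adjusted permutation p = 0.0252 over 3 relations) and −0.510 for 1367633_at (rho −0.516, adjusted permutation p = 0.00501). Without the 2 samples farthest from the median these were −0.439 and −0.492, and with the group means removed −0.339 and −0.470. The brightest probe set did not follow it, with r = −0.003 (rho 0.001, adjusted permutation p = 0.987). The control difference averaged 1.18 ± 0.09 at 541 mg/kg and 1.13 ± 0.08 in vehicle (log2, SD, n = 6 each). With it as a covariate, added after the correlation was seen, the differences at 541 mg/kg were −0.33, −0.28 and −0.39 for 1367632_at, 1386870_at and 1367633_at, none past the FDR. RefSeq also lists 2 Glul pseudogenes; whether their transcripts reach these probes was not tested.

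Slc1a2, the glutamate transporter of the same cells, lay on the other side of vehicle in its brighter probe set, also short of the FDR. Probe set 1369693_a_at ran from 6.14 to 6.34 with a median of 6.23 in livers given 541 mg/kg, against 5.67 to 6.00 with a median of 5.93 in vehicle livers. All 6 samples at 541 mg/kg lay above all 6 vehicle samples, and their SD of 0.067 was smaller than the 0.12 in vehicle. The difference was 0.34 ± 0.11 (95% interval 0.11 to 0.57), or 1.27 times the vehicle level, with an adjusted p of 0.253. The values at 54.1 mg/kg spread from 5.62 to 6.39, with 3 samples above and 3 below the vehicle mean, and the difference was 0.10 ± 0.11 (adjusted p = 0.853). Between the upper doses, 541 mg/kg lay 0.25 ± 0.11 above 54.1 mg/kg (unadjusted p = 0.0356, adjusted p = 0.999).

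The dose series of this Slc1a2 probe set had means of 5.88 ± 0.12 in vehicle, 5.80 ± 0.18 at 0.05, 5.79 ± 0.21 at 0.54, 5.96 ± 0.27 at 5.41, 5.98 ± 0.29 at 54.1 and 6.22 ± 0.07 at 541 mg/kg (log2, SD, n = 6 each). The trend over the 6 groups was 0.069 ± 0.019 per dose step (adjusted p = 0.0779). The 2 upper doses together differed from the 3 lower ones by 0.25 ± 0.07 (adjusted p = 0.181). The other Slc1a2 probe set, 1369694_at, lay near the low end of the scale, from 2.81 to 3.26 with a median of 2.97 at 541 mg/kg, against 2.84 to 3.14 with a median of 2.94 in vehicle. It differed by 0.04 ± 0.07 at 541 mg/kg (adjusted p = 0.914), and by −0.10 ± 0.07 at 54.1 mg/kg. Only 8.52% of probe sets had a lower mean on these arrays.

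Rgn varied least between samples. It ran from 12.92 to 13.03 with a median of 12.98 in livers given 541 mg/kg, against 13.04 to 13.14 with a median of 13.07 in vehicle livers. All 6 samples at 541 mg/kg lay below all 6 vehicle samples, but the difference was only −0.09 ± 0.04, or 0.940 times the vehicle level, with an adjusted p of 0.454. Its SD within groups was 0.044, and 0.139% of probe sets varied as little or less. The standard error above is limma's, which draws on the spread of all probe sets and so exceeds what this SD alone gives. Under the alternatives described below, the adjusted p at 541 mg/kg ran from 0.201 to 0.649. The difference was −0.02 ± 0.04 at 54.1 mg/kg, and at the 3 lower doses it lay between −0.02 and 0.02. Its mean stood above that of 99.7% of probe sets.

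**Figure D2:**
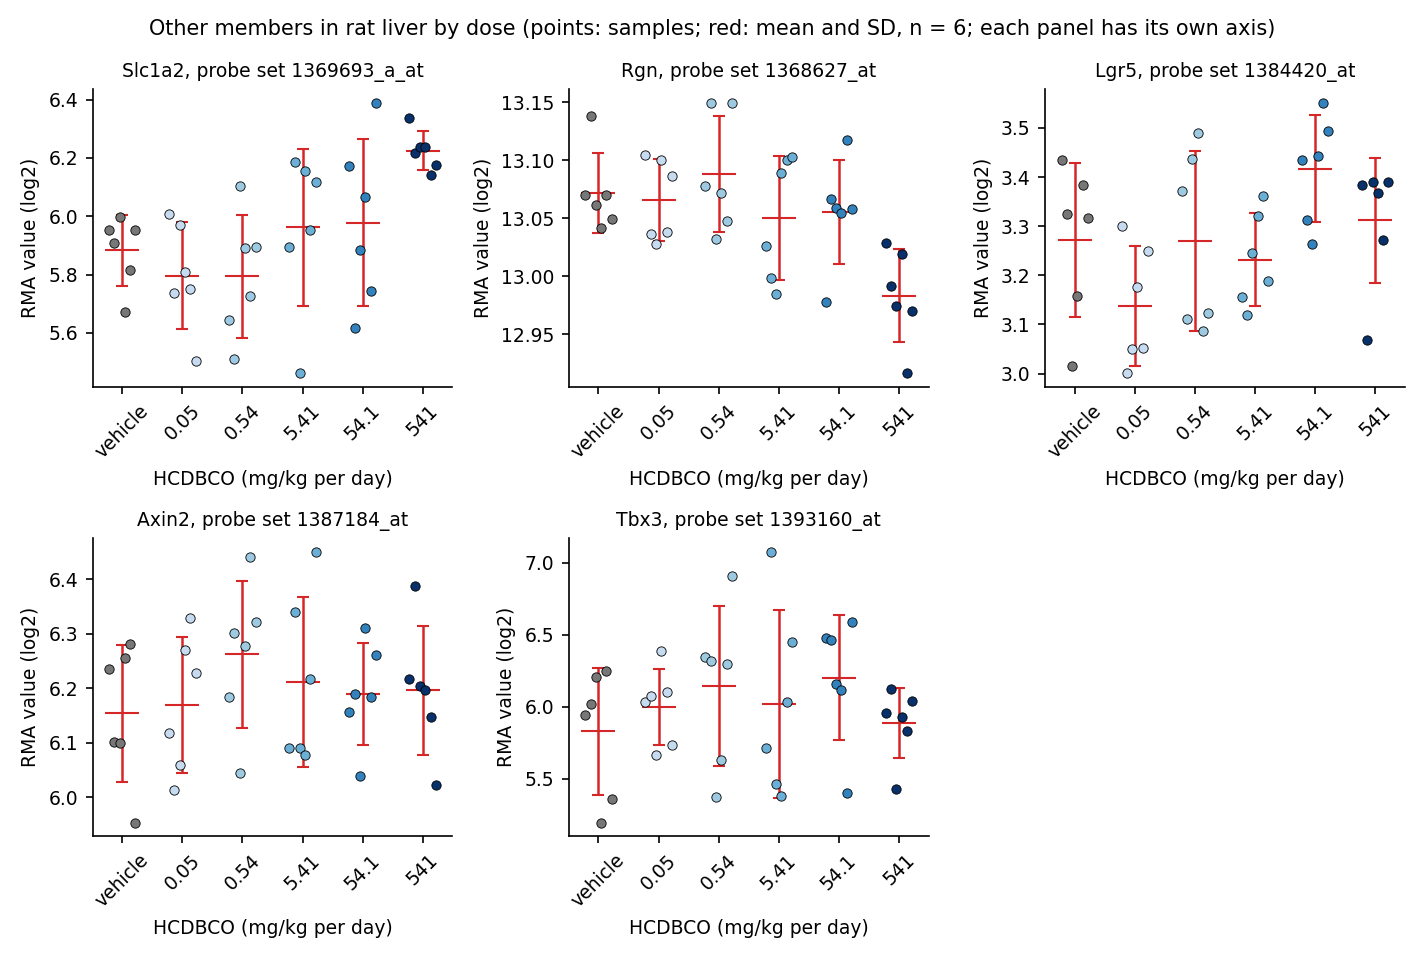
Deposited log2 RMA values of Slc1a2, Rgn, Lgr5, Axin2 and Tbx3 (brightest probe set of each, every panel with its own axis) against dose, vehicle at the left; points are samples and red marks the mean and SD of 6. At 541 mg/kg the 6 Slc1a2 samples sit above and the 6 Rgn samples below all vehicle samples, while Lgr5, Axin2 and Tbx3 overlap with vehicle at every dose.

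Axin2, the feedback target of beta-catenin, differed little between groups. It ran from 6.02 to 6.39 with a median of 6.20 in livers given 541 mg/kg, against 5.95 to 6.28 with a median of 6.17 in vehicle livers. The difference was 0.04 ± 0.07, and its 95% interval of −0.11 to 0.19 limits how far this probe set may have differed from vehicle. At 54.1, 5.41, 0.54 and 0.05 mg/kg the differences were 0.04, 0.06, 0.11 and 0.02, none past the FDR and none with an unadjusted p under 0.05.

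Tbx3 had the widest spread within groups of the 6 genes, with an SD of 0.46 in its brightest probe set. That probe set, 1393160_at, ran from 5.43 to 6.12 with a median of 5.94 at 541 mg/kg, against 5.20 to 6.25 with a median of 5.98 in vehicle. The difference was 0.06 ± 0.24, and its 95% interval of −0.44 to 0.55 was wide and held 0. Livers at 54.1 mg/kg ran from 5.40 to 6.59 with a median of 6.31, and the difference was 0.37 ± 0.24 (adjusted p = 0.676). The other 3 Tbx3 probe sets, 1390627_a_at, 1377230_at and 1381464_at, differed by 0.03, 0.06 and −0.06 at 541 mg/kg and by 0.12, 0.11 and 0.11 at 54.1 mg/kg. All 4 were above vehicle on average at 54.1 mg/kg and none passed the FDR at any dose.

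Lgr5, the R-spondin receptor, lay low on the scale, as 16.1% of probe sets had a lower mean. It ran from 3.07 to 3.39 with a median of 3.37 at 541 mg/kg, against 3.01 to 3.43 with a median of 3.32 in vehicle, a difference of 0.04 ± 0.08 (adjusted p = 0.924). Values at 54.1 mg/kg ran from 3.26 to 3.55 with a median of 3.44, a difference of 0.14 ± 0.08 (adjusted p = 0.587). The upper doses together lay 0.15 ± 0.05 above the 3 lower doses (unadjusted p = 0.00488, adjusted p = 0.295). The deposited values carry no detection calls, so whether this probe set was above background is not known.

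Over all the genes, 0 of 12 probe sets passed the FDR of 5% in limma at 541 mg/kg, where 0.155% of all probe sets did, and 0 of 12 at 54.1 mg/kg, where 0.0741% did. At 5.41, 0.54 and 0.05 mg/kg no probe set of any gene passed it. Without adjustment, 5 of 12 had p under 0.05 at 541 mg/kg, against 9.07% of all probe sets. They were the 3 of Glul, which read 1 gene, Slc1a2 1369693_a_at and Rgn. One of the 12, the brightest Glul probe set, had p under 0.05 at 54.1 mg/kg, against 9.2% of all, and at each lower dose 0 of 12 did, where the share over all probe sets was 4.83% at 5.41, 4.18% at 0.54 and 3.02% at 0.05 mg/kg. The groups did not overlap for 2 of 12 at 541 mg/kg (Slc1a2 1369693_a_at and Rgn), against 0.744% of all probe sets, and for 0 of 12 at 54.1 mg/kg, against 0.596%. The median difference of the 12 at 541 mg/kg was 0.03, beside 0.01 over all probe sets.

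The joint comparisons gave no call either. For the upper doses together against the 3 lower ones 0 of 12 passed the FDR, where 0.287% of all probe sets did, and 5 had an unadjusted p under 0.05, against 8.61%. For the upper doses together against vehicle 0 of 12 passed, against 0.238%, 4 had an unadjusted p under 0.05, against 10.7%, and the smallest adjusted p was 0.173 for the brightest Glul probe set. For 541 against 54.1 mg/kg 0 of 12 passed, against 0.00322%, and 1 had an unadjusted p under 0.05, against 4.76%. For the trend 0 of 12 passed, against 0.715%, and 6 had an unadjusted p under 0.05, against 12% of all probe sets. The 3 Glul probe sets, which read 1 gene, were among these 6. They were also among the 5 and the 4 of the upper doses together. The moderated F-test over the 6 groups called 0 of 12, against 0.0999%. Unadjusted, 3 of 12 had p under 0.05 in it, against 5.99%, the smallest being 0.00538 for Slc1a2 1369693_a_at. The comparisons against vehicle share the vehicle arrays.

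**Figure D3:**
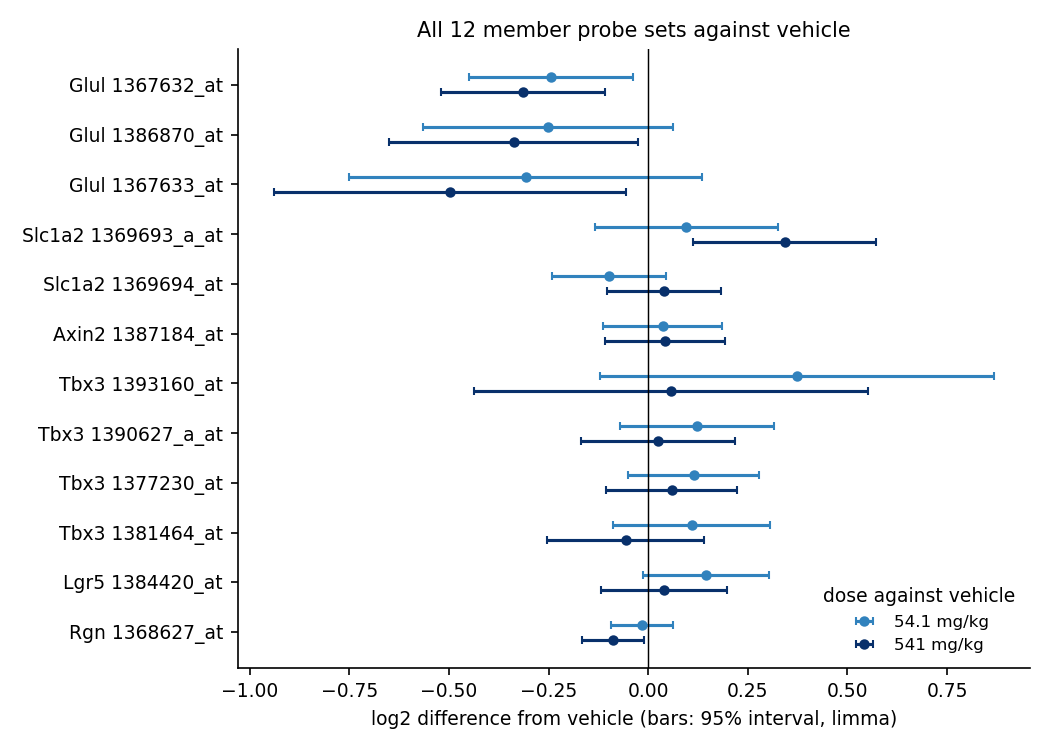
Difference of each of the 12 probe sets from vehicle (log2, horizontal axis) at 54.1 and at 541 mg/kg; bars are limma's 95% intervals. Glul's 3 probe sets lie left of 0 at both doses, Slc1a2 1369693_a_at lies right of 0 at 541 mg/kg (0.34), and the intervals of Axin2, Tbx3 and Lgr5 hold 0.

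The genes were then set against each other over the 36 samples, with the brightest probe set of each, in 15 pairs. Axin2 and Tbx3 had the highest r over the values as deposited, with Pearson's r = 0.480 and Spearman's rho = 0.485 (permutation p = 0.00292 and 0.00277, Benjamini-Hochberg adjusted 0.0438 and 0.0415 over the 15 pairs). Without the 2 samples farthest from the Axin2 median r was 0.405 and the adjusted p 0.0903; with the group means removed r was 0.471 and the adjusted p 0.0853, so the call did not hold under either. The other Tbx3 probe sets had r of 0.466, 0.593 and 0.324 with Axin2 (1390627_a_at, 1377230_at and 1381464_at), which are given as a description.

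Glul and Tbx3 had r = 0.394 (rho 0.294, adjusted permutation p = 0.103 and 0.200), and without the 2 samples farthest from the Glul median r was 0.147. With the group means removed and all 36 samples kept, r was 0.524, the highest of the 15 pairs under that setting (adjusted permutation p = 0.0802). The 2 samples were 5.41 mg/kg replicate 2, the highest of the 36 for all 3 Glul probe sets (11.57 in the brightest) and for Tbx3 1393160_at (7.08), and 0.54 mg/kg replicate 6, the second highest for both (11.48 and 6.91). The same livers ranked 4 and 6 from the top of 36 for Axin2. Vehicle replicate 4 was the lowest of the 36 for Tbx3 (5.20) and the lowest vehicle sample for Glul (10.94).

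Glul and Slc1a2 had r = −0.090 over all samples (rho −0.093, adjusted permutation p = 0.693), but 0.351 with the group means removed. Glul and Rgn had r = 0.361 (rho 0.375, adjusted permutation p = 0.118 and 0.123) and 0.071 with the group means removed. Slc1a2 and Rgn had r = −0.386 (rho −0.414, adjusted permutation p = 0.103 and 0.0896) and −0.016 with the group means removed (adjusted permutation p = 0.947). Without the 2 samples farthest from the Slc1a2 median r was −0.498 and the adjusted permutation p 0.0393, so this pair then passed. In both of these pairs r within the dose groups was near 0 for the brightest probe sets. The other Glul probe sets, 1386870_at and 1367633_at, had r of 0.096 and 0.064 with Rgn. With the group means removed their r was −0.203 and −0.272, given as a description. Glul had r = 0.270 with Axin2 and −0.157 with Lgr5, and no other pair passed the adjustment with all 36 values as deposited.

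**Figure D4:**
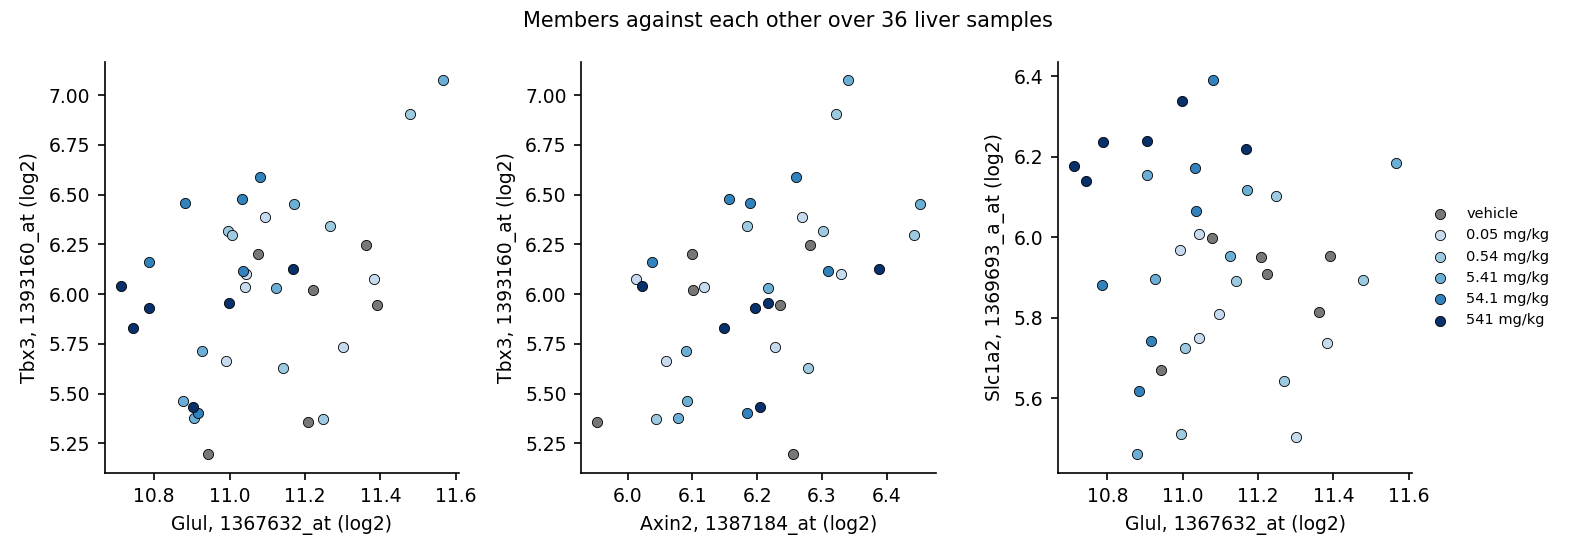
Deposited log2 values of pairs of genes over the 36 samples, coloured by dose group: Tbx3 against Glul, Tbx3 against Axin2 and Slc1a2 against Glul. In the left panel 2 samples at the upper right (5.41 mg/kg replicate 2 and 0.54 mg/kg replicate 6) are those without which r was 0.147, the middle panel shows the pair with the highest r (0.480), and in the right panel the 6 samples at 541 mg/kg lie high for Slc1a2.

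The genes whose pattern over the 36 samples was most like that of the brightest Glul probe set were Smpd2 (r = 0.703), Glud1 (r = 0.701), Dexi (r = 0.686), Gulo (r = 0.675) and Slc22a8 (r = 0.665). The values are a description, since they are the 5 highest over all named genes, and arrays share their processing. With the group means removed, r was 0.649 for Smpd2, 0.536 for Glud1, 0.507 for Dexi, 0.616 for Gulo and 0.577 for Slc22a8. Glud1 encodes glutamate dehydrogenase, which releases ammonia from glutamate or binds it. Gulo encodes the enzyme of the last step of vitamin C synthesis, and Slc22a8 an organic anion transporter.

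Genes of the Wnt pathway were described from lists of ligands, receptors and transducers, inhibitors and targets, and none of their measured members passed the FDR at 541 or 54.1 mg/kg. Of 7 ligands and enhancers, 4 lay above and 3 below vehicle at 541 mg/kg. Rspo3, the R-spondin of the central vein, differed by −0.11 ± 0.07, Wls, which carries Wnt proteins to the cell surface, by −0.16 ± 0.13 and Rspo1 by 0.11 ± 0.09. The other Rspo3 probe set differed by 0.03 ± 0.08. Of 23 receptors and transducers, 10 lay above and 13 below. Lgr4, another R-spondin receptor, differed by −0.23 ± 0.09 (adjusted p = 0.371), Tcf7l1, a TCF factor, by 0.19 ± 0.10 and Dvl2, which relays the signal from the receptor, by −0.12 ± 0.07. The other Tcf7l1 probe set differed by 0.33 ± 0.14 (adjusted p = 0.454). Ctnnb1, beta-catenin itself, named after its value was seen, differed by −0.04 ± 0.05 in its brightest probe set. Of 9 inhibitors and feedback targets, 7 lay above and 2 below. Ccnd1, cyclin D1, which drives cells into the cycle, averaged 8.91 at 541 mg/kg and 9.52 in vehicle (difference −0.60 ± 0.19, adjusted p = 0.223), and its other probe sets differed by −0.47 and −0.48. Tnfrsf19 differed by 0.27 ± 0.12 (adjusted p = 0.471), and Sfrp5, a secreted Wnt inhibitor, by 0.10 ± 0.11.

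Among 14 other pericentral genes measured, 1 rose at 541 mg/kg and 0 fell, where 0.116% of all probe sets rose and 0.0387% fell. These shares include dim probe sets, while each listed gene is counted by its brightest. Fitted without probe sets of mean below 6, 104 of 11710 passed in either direction. Ephx1, microsomal epoxide hydrolase, averaged 13.0 at 541 mg/kg and 12.5 in vehicle, a difference of 0.52 ± 0.10 (adjusted p = 0.0152). It is also a known target of xenobiotic receptors. The remaining 13 had 6 values above and 7 below vehicle, and the median of the 14 was 0.00, beside 0.01 over all genes. Cyp2e1, an ethanol-oxidising cytochrome P450, differed by −0.09 ± 0.05, Ahr, the dioxin receptor, by 0.46 ± 0.14 in 1 probe set and 0.02 ± 0.10 in the other (adjusted p = 0.196 and 0.979), and Oat, ornithine aminotransferase, which shares the narrow zone of Glul, by −0.49 ± 0.17 (adjusted p = 0.301). Cyp7a1 of bile acid synthesis, named after its value was seen, had the largest difference of the list, 1.09 ± 0.42 (adjusted p = 0.382). In limma's linear trend over the 6 groups, Ephx1 (adjusted p = 0.00125) and the first Ahr probe set (adjusted p = 0.0473) passed the FDR. No other probe set of this list did, and 0.715% of all probe sets passed.

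Among 12 measured genes of glutamine and ammonia handling, 1 fell at 541 mg/kg and 0 rose, where 0.0387% of all probe sets fell and 0.116% rose. Here too the shares include dim probe sets, while each listed gene is counted by its brightest. Glud1 averaged 12.6 at 541 mg/kg and 12.8 in vehicle in its brighter probe set 1387878_at, a difference of −0.25 ± 0.05 (adjusted p = 0.0122), and its other probe set differed by −0.23 ± 0.05 (adjusted p = 0.0534). Its differences at 54.1 mg/kg were −0.22 (adjusted p = 0.0535) and −0.26 (adjusted p = 0.0323), so the call changed probe set between the doses. Of the 12, 9 lay below vehicle at each of the upper doses, with a median of −0.18 at 541 and −0.10 at 54.1 mg/kg, beside 0.01 over all genes. Gls2, the liver glutaminase of the portal side, differed by −0.22 ± 0.09 at 541 mg/kg (adjusted p = 0.400), and Slc38a2, an amino acid transporter that takes up glutamine, by −0.40 ± 0.18 (adjusted p = 0.495).

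Of 13 measured periportal genes, 10 lay below vehicle at 541 mg/kg and 11 at 54.1 mg/kg, with medians of −0.13 and −0.09, and 0 passed the FDR. Hal, histidine ammonia-lyase, differed by −0.36 ± 0.11 (adjusted p = 0.189), Ass1 of the urea cycle by −0.22 ± 0.09 (adjusted p = 0.363) and Cps1, its first enzyme, by −0.07 ± 0.05 in the brighter and −0.21 ± 0.12 in the other probe set. A difference between the periportal and pericentral lists was not tested. Of 6 measured genes of vitamin C synthesis and transport, the pathway of Rgn, 3 lay above and 3 below vehicle and none passed the FDR. Gulo differed by −0.14 ± 0.07, Slc23a1, a vitamin C transporter, by 0.24 ± 0.09 and Ugdh, UDP-glucose dehydrogenase, by 0.18 ± 0.07.

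**Figure D5:**
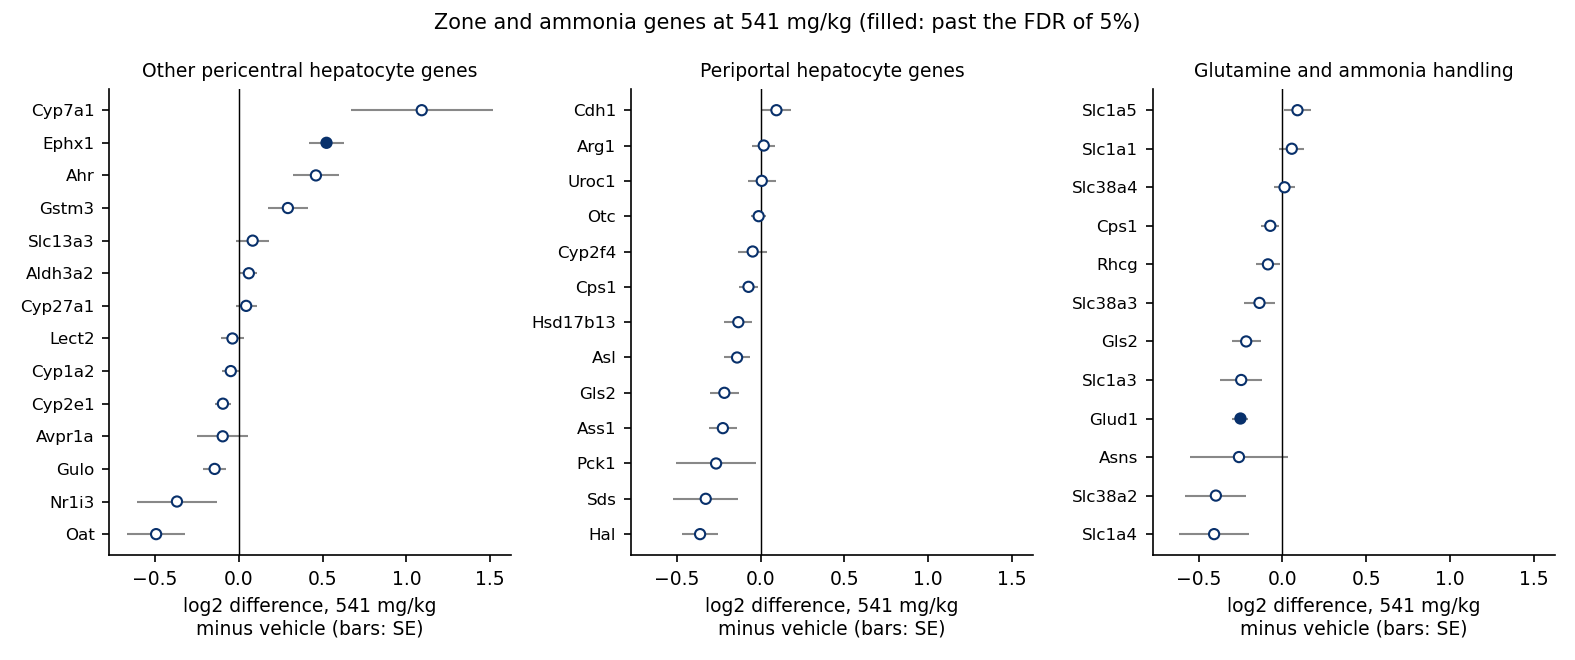
Difference of each measured gene from vehicle at 541 mg/kg (log2, horizontal axis; bars are standard errors, brightest probe set per gene) in lists of other pericentral genes, periportal genes and genes of glutamine and ammonia handling. Filled points passed the FDR of 5%: Ephx1 at 0.52 and Glud1 at −0.25.

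Markers of the cells that neighbour pericentral hepatocytes gave these values beside the Glul result. Of 11 markers of sinusoidal and central vein endothelium, the source of the Wnt signal, 10 lay below vehicle at 541 mg/kg and 4 at 54.1 mg/kg, with medians of −0.13 and 0.02, and 0 passed the FDR. Stab2 differed by −0.27 ± 0.10, Stab1 by −0.30 ± 0.12 and Kdr, a VEGF receptor, by −0.18 ± 0.08 at 541 mg/kg. The mean of the 11 per sample ran from 7.00 to 7.12 at 541 mg/kg and from 7.07 to 7.34 in vehicle (log2). Such a shift was not particular to endothelium. The hepatocyte markers ran from 12.96 to 13.16 against 13.13 to 13.41, and the periportal genes from 10.61 to 10.87 against 10.79 to 10.97. Genes of glutamine and ammonia handling ran from 8.06 to 8.15 against 8.19 to 8.41. The Kupffer cell markers ran from 7.44 to 8.11 against 7.36 to 8.14. Of the Kupffer cell markers 1 of 5, of the stellate cell markers 4 of 6 and of the bile duct markers 1 of 4 lay below vehicle at 541 mg/kg, and 0 passed the FDR. The Kupffer cell markers Cd163, Csf1r and Cd68 differed by −0.12 ± 0.15, 0.09 ± 0.16 and 0.12 ± 0.21. The stellate cell markers Rgs5, Lrat and Des differed by 0.34 ± 0.12, −0.18 ± 0.08 and −0.17 ± 0.10, and the bile duct markers Epcam, Krt7 and Spp1 by 0.24 ± 0.12, 0.15 ± 0.19 and −0.04 ± 0.22. Of 5 hepatocyte markers 3 lay below vehicle, Apoa1 by −0.17 ± 0.06, Tat by −0.47 ± 0.22 and Serpina1 by −0.07 ± 0.04, and the defining markers Alb and Ttr, named after their values were seen, differed by 0.00 and 0.01. None of the markers named here passed the FDR. Their part in the values of Glul was not tested.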

How the data were processed

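The deposited values are log2 expression values, 1 per probe set and array, made by the authors with RMA and the affy package, per the submitters' processing notes. RMA scales each array to the others, so a difference is relative to the rest of the array; raw scans were not used here, and the log base was taken from the method. From these values, 57 control probe sets were left out and 31042 were fitted with limma 3.58.1 in R 4.3.3, as 6 group means with no covariate. Tests were two-sided, with Benjamini-Hochberg adjustment over the 31042 and a threshold of 5%. The procedure was also run on simulated data, drawn as independent normal noise for each probe set. That setting holds no relation between probe sets and no odd array, so it cannot show how well the FDR held here. The R package that the design text names was not used. Groups came from the sample titles. Correlations used 100000 permutations.

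The genes, the 12 lists (112 of 125 genes measured, each counted by its brightest probe set) and the tests were chosen with earlier results of these data known. Named were all probe sets of the 7 genes, list members past the FDR at 54.1 or 541 mg/kg, the 3 per list with the smallest p at 541 mg/kg, Ass1, Cps1, Gls2, Cyp2e1 and Gulo, and the 5 genes most correlated with the brightest Glul probe set (1 symbol, mean of at least 6). Ctnnb1, Cyp7a1, Alb and Ttr were named after their values were seen. The median standard error of a group difference was 0.0799, set by the number of arrays and the spread between samples. The r of the deviations of same-numbered dosed and vehicle samples ran from −0.212 to 0.154, above 0.1 in 6 of 30 pairs. Differently numbered samples were not compared, so these values cannot decide whether replicate numbers pair samples. From vehicle to 54.1 mg/kg, the GAPDH 3′ signal minus its 5′ signal ran from −0.167 to −0.074 in replicate 1. In replicate 2 it ran from −0.012 to 0.060 (log2). At 541 mg/kg the order of replicates 1 and 2 was turned, with −0.018 and −0.060. These are 2 of 6 replicate numbers, and each of the others overlapped 1 of them from vehicle to 54.1 mg/kg. Replicate 5 ran from −0.100 to −0.045 there, and replicate 6 from −0.053 to 0.039.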

Additional observations from a re-analysis of the deposited data

Results flagged for a closer look

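In 6 of the 72 groups of 6 values (12 probe sets in 6 groups), 1 sample stood apart from the other 5 by Dixon's criterion, which chance alone does in about 1 in 20 groups. Tbx3 gave 3 of them. Its probe set 1381464_at read 3.4947 in 54.1 mg/kg replicate 6, against 2.935 in the nearest other sample of that dose, and 2.9955 in 541 mg/kg replicate 4, against 2.7711. Its probe set 1377230_at read 5.1902 in vehicle replicate 5, against 4.9192 in the nearest. Lgr5 read 3.0685 in 541 mg/kg replicate 2, against 3.272 in the nearest sample of that dose. Rgn read 13.1384 in vehicle replicate 2, the highest of its group, against 13.0705. Slc1a2 1369694_at read 2.7707 in 0.54 mg/kg replicate 4, against 2.8956. Without 54.1 mg/kg replicate 6, the difference of Tbx3 1381464_at at that dose was −0.0030, against 0.11 with it.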

How the results depend on the processing

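No probe set of the 7 genes passed the FDR under any alternative in the comparisons of a single dose with vehicle, of the upper doses with the lower ones or with vehicle, or of 541 with 54.1 mg/kg, nor in the F-test. The count past the FDR for the linear trend was 0, and became 2 with array quality weights (Glul 1367632_at, adjusted p = 0.0424, and Slc1a2 1369693_a_at, adjusted p = 0.0484) and 1 without probe sets of mean below 6 (Glul, adjusted p = 0.0323), where fewer probe sets are tested. As a slope on log10 dose over the 5 dosed groups it stayed 0, with adjusted p of 0.246 for Glul and 0.127 for Slc1a2 (0.0712 and 0.0779 in the trend over 6 groups), and 33 of all probe sets passed, against 222. Leaving out single samples gave counts of 0 to 1: Glul passed without vehicle replicate 4 (0.0479), 5.41 mg/kg replicate 2 (0.0268) or 541 mg/kg replicate 2 (0.0389), and Slc1a2 without 5.41 mg/kg replicate 3 (0.0362) or 54.1 mg/kg replicate 2 (0.0482). Of all probe sets, 48 passed at 541 mg/kg, but 104 without dim probe sets, 80 with weights, 31 with only the groups compared, and 18 to 63 with single samples left out; at 54.1 mg/kg 23 passed, but 40, 64, 43 and 5 to 36. Directions turned for some differences that were 0.03 to 0.11 before any alternative. They also turned for the correlations of Glul with Slc1a2 and Lgr5. Tbx3 1393160_at at 541 mg/kg was −0.011 with the actin covariate, and Slc1a2 at 54.1 mg/kg was −0.0011 as the mean of its probe sets. Leaving out single samples, Tbx3 1393160_at ran from −0.069 to 0.148, Tbx3 1390627_a_at from −0.073 to 0.068, Lgr5 from −0.012 to 0.088 and Slc1a2 1369694_at from −0.011 to 0.080 at 541 mg/kg, and Axin2 from −0.0043 to 0.066 and Tbx3 1381464_at from −0.0030 to 0.167 at 54.1 mg/kg. With group means removed, r of Glul was 0.351 with Slc1a2 and 0.051 with Lgr5, against −0.090 and −0.157. With the replicate number as a block (replicate block), the counts past the FDR stayed at 0 for the 12 probe sets and were 44 at 541 mg/kg and 28 at 54.1 mg/kg for all probe sets. The cause of these changes was not tested. The actin covariate was chosen after seeing the data.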
